A study of Rattus norvegicus with 16 samples.

Results

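The genes described here encode the machinery that copies DNA in S phase: 43 genes were listed, from deoxynucleotide supply through origin licensing, the MCM helicase, the polymerases, the sliding clamp and its loader to chromatin assembly behind the fork. A gene was measured where at least 1 probe on the array was assigned to it alone, and where several were, the probe with the highest mean over all 16 arrays was used. This gave 41 of the 43 genes, of 18166 genes with such a probe (18511 single-gene probes among 30429 probes); Rrm1 and Tk1 had none and were not analysed here. Of the 41 probes, 30 were in the brighter part of the array (mean signal above the median probe) and 11 in the dimmer part. No detection calls were used, so a low signal is not shown to lie above background.

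The carotid body senses arterial oxygen, and its chemosensory glomus cells release transmitter when oxygen falls. Cells were sorted from dispersed carotid bodies of Wistar rats aged 9 to 11 weeks. Neuroblasts were taken as cells stained for the HNK-1 surface carbohydrate and glomus cells as cells without it, from rats kept in ambient air (normoxia) or for 3 days in hypoxic chambers (hypoxia). Each of the 4 groups (normoxic glomus cells, hypoxic glomus cells, normoxic neuroblasts, hypoxic neuroblasts) had 4 arrays, each made from 500 pg of total RNA. The tissue is labelled as carotid bodies of both sides mixed. The labels do not say whether replicates came from separate animals, so p-values measure the spread between these samples, which may be technical. No batch or date is labelled, so a batch cannot be told apart from oxygen condition. These are bulk samples of sorted cells: fewer or more cells in S phase and less or more RNA per cell cannot be told apart.

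Replication is prepared before S phase, when the origin recognition complex, Cdc6 and Cdt1 load the MCM helicase onto origins. The helicase is switched on by Cdc45 and the GINS complex, primase with polymerase alpha lays the first primers, and polymerases delta and epsilon extend them on the Pcna clamp. Many of these genes are transcribed under E2F factors at the entry to S phase, and in the carotid body cell division is known to accompany growth of the organ in sustained hypoxia.

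Because E2F sites are a known feature of this gene class, promoters of members are shown: the 4 with the largest rises among members with an E2F match, and 2 with matches whose difference did not pass the test. Each is 250 bases before to 50 bases after the gene start from RefSeq (build GRCr8), printed 5′ to 3′ on the gene's strand. Capitals mark matches to TTTCCCGC, TTTGGCGC, TTTCGCGC or TTTGCCGC on either strand.
Gmnn (chr17:40729584-40729883, + strand): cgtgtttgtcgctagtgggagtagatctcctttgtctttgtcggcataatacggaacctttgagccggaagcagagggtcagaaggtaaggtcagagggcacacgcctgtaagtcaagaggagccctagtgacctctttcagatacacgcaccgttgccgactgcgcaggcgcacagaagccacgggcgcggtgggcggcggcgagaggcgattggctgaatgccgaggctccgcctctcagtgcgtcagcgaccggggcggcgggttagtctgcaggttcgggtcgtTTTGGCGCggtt
Gins1 (chr3:160184670-160184969, + strand): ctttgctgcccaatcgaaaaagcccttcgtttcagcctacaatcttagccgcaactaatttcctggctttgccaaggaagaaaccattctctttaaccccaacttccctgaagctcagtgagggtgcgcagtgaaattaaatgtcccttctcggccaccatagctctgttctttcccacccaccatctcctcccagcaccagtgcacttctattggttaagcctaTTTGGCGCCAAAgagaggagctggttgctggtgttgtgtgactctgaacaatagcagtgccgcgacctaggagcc
Pole2 (chr6:93435312-93435611, - strand): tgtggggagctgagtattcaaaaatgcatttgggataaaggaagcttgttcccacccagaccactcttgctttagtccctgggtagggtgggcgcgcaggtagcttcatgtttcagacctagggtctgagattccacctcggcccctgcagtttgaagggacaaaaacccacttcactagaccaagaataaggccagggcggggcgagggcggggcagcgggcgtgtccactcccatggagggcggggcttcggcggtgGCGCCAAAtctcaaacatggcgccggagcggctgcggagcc
Mcm5 (chr19:13488563-13488862, + strand): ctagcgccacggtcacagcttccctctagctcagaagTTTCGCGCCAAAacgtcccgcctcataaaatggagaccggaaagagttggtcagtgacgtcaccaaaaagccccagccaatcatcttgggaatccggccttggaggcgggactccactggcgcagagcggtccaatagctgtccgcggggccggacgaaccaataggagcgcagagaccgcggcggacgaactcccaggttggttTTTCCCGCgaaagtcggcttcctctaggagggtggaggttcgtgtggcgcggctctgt
Mcm2 (chr4:122918045-122918344, - strand): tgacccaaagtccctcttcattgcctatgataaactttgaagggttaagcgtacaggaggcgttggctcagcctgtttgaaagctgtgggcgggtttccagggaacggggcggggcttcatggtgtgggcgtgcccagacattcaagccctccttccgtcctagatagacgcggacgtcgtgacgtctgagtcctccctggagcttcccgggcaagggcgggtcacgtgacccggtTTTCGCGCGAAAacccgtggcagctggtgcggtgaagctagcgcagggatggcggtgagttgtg
Mcm7 (chr12:22163129-22163428, - strand): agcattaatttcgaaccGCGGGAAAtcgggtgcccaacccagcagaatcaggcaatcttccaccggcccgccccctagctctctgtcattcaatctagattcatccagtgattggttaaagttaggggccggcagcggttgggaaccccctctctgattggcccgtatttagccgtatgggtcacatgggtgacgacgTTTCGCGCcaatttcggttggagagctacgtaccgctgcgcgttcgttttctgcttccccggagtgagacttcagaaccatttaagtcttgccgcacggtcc
Counting the start as 1, the match lay at bases 39 to 46 in Gmnn and 10 to 17 in Pole2, downstream of the start. In Gins1 and Mcm2 overlapping matches on opposite strands form 1 capital block, which ended at -14 and -3. Mcm5 held such a block from -213 to -202 and a further match from -8 to -1, and Mcm7 held matches at -233 to -226 and -52 to -45.

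A promoter was found for 35 of the 41 members; Rrm2, Orc1, Cdc6, Mcm4, Gins4 and Rpa3 had no entry. An E2F match was present in 16 of the 35 (45.7%), against 618 of 27457 promoters of the same length (2.3%) and 3.1% of the promoters of genes on the array. CCAAT, the letters bound by the factor NF-Y, was present in 22 of 35 (62.9%) against 37.7% of all promoters. The CHR letters of late cell cycle genes, TTTGAA or TTCGAA, were in 5 of 35 (14.3%) against 19.5%. Among the 16 members with an E2F match 5 rose with hypoxia in glomus cells and 8 in neuroblasts, against 6 and 9 of the 19 without one. These counts describe letters in a window and were given no test.

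Across all probes, the median hypoxic minus normoxic difference was 0.17 on the log2 scale in glomus cells and 0.25 in neuroblasts, and array medians were 4.40 to 4.64 in normoxia and 4.71 to 4.94 in hypoxia. In limma's moderated test with Benjamini-Hochberg adjustment over all 30429 probes (adjusted p under 0.05), 2852 probes rose and 2892 fell in glomus cells, and 5596 rose and 4159 fell in neuroblasts. With each array centred on its median these counts became 1370 and 3783, and 1826 and 5464; with quantile normalization the neuroblast counts became 3278 and 3701. One array stood apart: hypoxic neuroblast replicate 1 correlated with its own group at a mean r of 0.914, against 0.949 or more for every other array. The glomus marker Th (tyrosine hydroxylase) read 9.40 there and between 11.46 and 12.76 on the other 15 arrays. B3gat1, the enzyme that starts the HNK-1 epitope, was higher in neuroblasts in normoxia by 1.36 ± 0.29 (SE, limma adjusted p = 0.0197) but differed by 0.31 ± 0.29 in hypoxia (adjusted p = 0.72), with an interaction of -1.05 ± 0.42 (adjusted p = 0.682).

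After hypoxia a larger share of replication genes than of all probes rose in both populations, led by Rrm2, Gmnn, Rfc4, Rpa3, Gins1 and Pole2, each more than 3 times as high in both. In glomus cells 14 of 41 members rose (34.1%, against 9.37% of all probes) and 2 fell (9.5% of all probes). In neuroblasts 22 of 41 rose (53.7%, against 18.4% of all probes) and 2 fell (13.7% of all probes). All 14 that rose in glomus cells were among the 22, and the same 2 genes, Pold1 and Rpa1, fell in both. The member median difference was 0.35 in glomus cells and 0.56 in neuroblasts, beside 0.17 and 0.25 over all probes. Every hypoxic array lay above every normoxic array for 14 members in glomus cells (15.2% of all probes did) and 21 members in neuroblasts (16.3% of all probes). With arrays centred on their medians, 8 members rose and 3 fell in glomus cells, and 12 rose and 3 fell in neuroblasts, with no called member reversing. Under that centring 1370 of all 30429 probes rose and 3783 fell in glomus cells, and 1826 rose and 5464 fell in neuroblasts. Without hypoxic neuroblast replicate 1 the counts of rises were 22 in neuroblasts, with Orc1 no longer passing and Rfc5 passing, and 17 in glomus cells; without normoxic glomus replicate 4 the count was 9 in glomus cells.

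**Figure D1:**
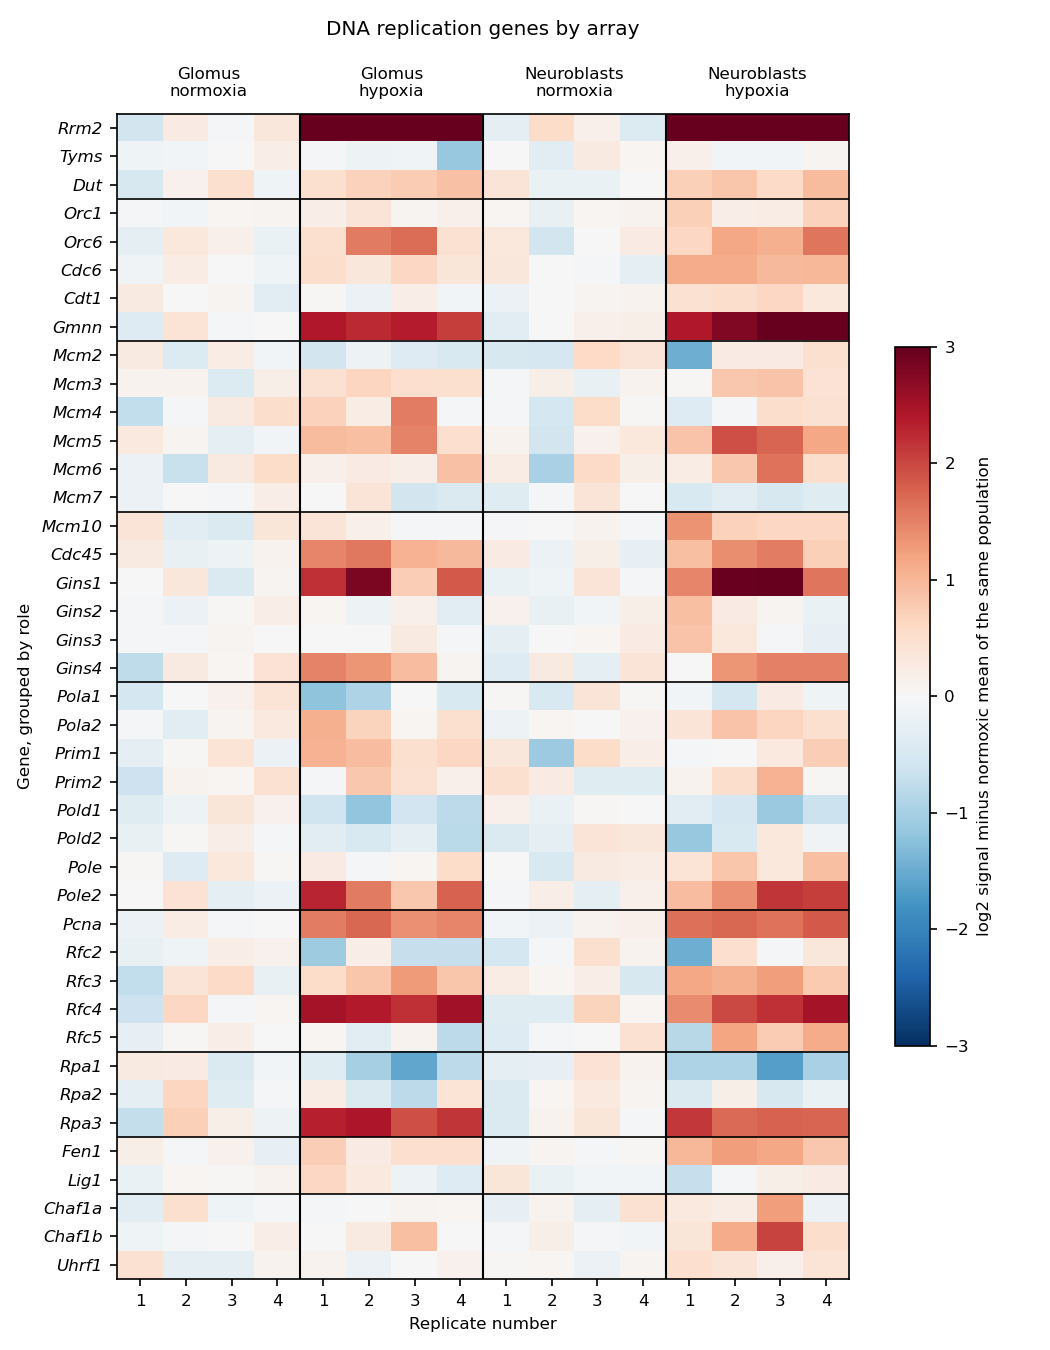
Each cell is the log2 signal of 1 replication gene on 1 array minus the mean of the 4 normoxic arrays of the same population, with genes grouped by role and the colour scale ending at -3 and 3. Rrm2, at 9.23 or above on every hypoxic array against 6.23 or below in normoxia, runs past the end of the scale, and Gmnn, Rfc4 and Rpa3 are dark on all 8 hypoxic arrays.

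Of the 3 nucleotide supply genes measured, 2 rose in both populations and 1 passed in neither. Of all probes 9.37% rose in glomus cells and 18.4% in neuroblasts. Rrm2 (probe 17732584) encodes the small subunit of ribonucleotide reductase, which makes deoxynucleotides. The gene record places Rrm2 on chromosome 6. This probe's number lies between those of Orc6 (17732230) and Gins2 (17734018), both on chromosome 19, and the position of the probe itself was not checked. The log2 signal of Rrm2 on the 4 arrays was 5.32, 6.13, 5.84 and 6.23 in normoxic glomus cells and 9.63, 9.40, 9.40 and 9.23 in hypoxic ones. In neuroblasts it was 5.38, 6.21, 5.81 and 5.24 in normoxia and 10.66, 10.19, 10.43 and 10.55 in hypoxia. Hypoxic and normoxic arrays did not overlap in either population. The rises were 3.54 ± 0.23 (SE, 11.6-fold, limma adjusted p = 2.09e-07) and 4.80 ± 0.23 (27.8-fold, adjusted p = 2.77e-09), the third largest in glomus cells and the second largest in neuroblasts of all 30429 probes. A second Rrm2 probe, with group means of 2.08 to 2.97, differed by 0.29 ± 0.24 in glomus cells (adjusted p = 0.44) and rose by 0.89 ± 0.24 in neuroblasts (adjusted p = 0.0108), so the probes disagreed in size.

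Dut, the dUTPase that keeps uracil out of DNA, rose by 0.70 ± 0.20 in glomus cells (adjusted p = 0.0204) and 0.77 ± 0.20 in neuroblasts (adjusted p = 0.00801). Its glomus groups overlapped, and both Dut calls were lost with arrays centred on their medians (limma adjusted p = 0.149 and 0.116). Tyms, thymidylate synthase, had group means of 8.58 and 8.23 in normoxic and hypoxic glomus cells and of 8.21 and 8.23 in neuroblasts, with differences of -0.36 ± 0.21 (adjusted p = 0.267) and 0.02 ± 0.21 (adjusted p = 0.945). Its glomus value rests partly on replicate 4 of the hypoxic arrays, which read 7.45 beside 8.44 to 8.54.

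Of the 5 licensing genes, 3 rose in glomus cells and all 5 in neuroblasts. Gmnn encodes geminin, the inhibitor of Cdt1 that accumulates in S and G2 phase and prevents origins from being licensed again. Gmnn read 5.13, 5.91, 5.48 and 5.52 in normoxic glomus cells and 7.92, 7.75, 7.86 and 7.58 in hypoxic ones. In neuroblasts it read 4.86, 5.20, 5.33 and 5.36 in normoxia and 7.60, 7.97, 9.06 and 8.40 in hypoxia. Groups did not overlap, and the hypoxic neuroblast arrays (SD 0.63) spread wider than the hypoxic glomus arrays (SD 0.15), with replicate 3 highest. The rises were 2.27 ± 0.25 (4.82-fold, adjusted p = 2.02e-05) and 3.07 ± 0.25 (8.40-fold, adjusted p = 5.49e-07). Its target Cdt1, the loader that brings the helicase to origins, differed by -0.01 ± 0.16 in glomus cells (adjusted p = 0.979) and rose by 0.48 ± 0.16 in neuroblasts (adjusted p = 0.0294). Cdc6, which loads the helicase with Cdt1, rose by 0.47 ± 0.16 in glomus cells (adjusted p = 0.0449) and 1.05 ± 0.16 in neuroblasts (adjusted p = 9.33e-05). The glomus call of Cdc6 was lost in 16 of 25 alternatives, among them centring, quantile normalization, the replicate block and 12 of the arrays left out singly, whereas the neuroblast call was lost in none of the 25. The origin recognition subunit Orc6 rose by 1.04 ± 0.30 and 1.12 ± 0.30 (adjusted p = 0.0192 and 0.00869). Both Orc6 calls were lost with centring (limma adjusted p = 0.0896 and 0.0669). Orc1, a subunit that binds ATP, differed by 0.20 ± 0.16 in glomus cells (adjusted p = 0.413) and rose by 0.46 ± 0.16 in neuroblasts (adjusted p = 0.037), a call lost in 11 of 25 alternatives, as that of Cdt1 was in 9.

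Of the 6 subunits of the MCM helicase ring, 1 rose in glomus cells (16.7%, against 9.37% of all probes) and 2 in neuroblasts (33.3%, against 18.4%). Mcm5 rose in both populations, by 0.96 ± 0.26 in glomus cells (adjusted p = 0.016) and 1.43 ± 0.26 in neuroblasts (adjusted p = 0.000583), and Mcm3 rose in neuroblasts by 0.53 ± 0.19 (adjusted p = 0.043). That Mcm3 call was lost in 16 of 26 alternatives, among them centring, quantile normalization, the mean of its probes and 11 of the arrays left out singly. Mcm3 differed by almost as much in glomus cells, 0.52 ± 0.19, without passing (adjusted p = 0.0701). Mcm2, often used as a marker of cells able to replicate, read 6.32, 5.63, 6.26 and 5.97 in normoxic glomus cells and 5.50, 5.90, 5.66 and 5.58 in hypoxic ones. In neuroblasts Mcm2 read 5.19, 5.16, 6.26 and 6.04 in normoxia and 4.19, 5.92, 5.92 and 6.14 in hypoxia. Its groups overlapped in both populations, and the differences were -0.39 ± 0.35 (adjusted p = 0.476) and -0.12 ± 0.35 (adjusted p = 0.799). Mcm4 differed by 0.61 ± 0.34 and 0.13 ± 0.34, Mcm6 by 0.38 ± 0.35 and 0.79 ± 0.35, and Mcm7 by -0.16 ± 0.20 and -0.40 ± 0.20 in glomus cells and neuroblasts, with adjusted p from 0.0853 to 0.774. With arrays centred on their medians, Mcm7 fell in neuroblasts by 0.68 on the log2 scale (adjusted p = 0.0366; 0.0366 to 0.363 over the alternatives). Second probes of Mcm3 and Mcm4 passed in neither population. Within an array, the log2 ratio of Mcm5 to Mcm2 was on average 1.34 higher in hypoxic than in normoxic glomus cells and 1.55 higher in neuroblasts, with no overlap between groups. In neuroblasts it ran from -1.10 to -0.04 in normoxia and from 0.07 to 1.70 in hypoxia. The highest ratio was on hypoxic replicate 1, the array that stood apart, where Mcm2 read 4.19. This pair and the other pairs below were chosen after their values were seen and have no test.

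Of the 6 genes that switch the helicase on, 2 rose in glomus cells (33.3%, against 9.37% of all probes) and 4 in neuroblasts (66.7%, against 18.4%). Gins1, a GINS subunit, read 3.67, 3.99, 3.23 and 3.75 in normoxic glomus cells and 5.84, 6.48, 4.40 and 5.49 in hypoxic ones. In neuroblasts Gins1 read 3.11, 3.18, 3.68 and 3.25 in normoxia and 4.78, 6.26, 7.02 and 4.92 in hypoxia. The groups did not overlap, but hypoxic arrays spread over more than 2 log2 units in both populations. The rises were 1.89 ± 0.44 (adjusted p = 0.00587) and 2.44 ± 0.44 (adjusted p = 0.000533). Of its partners in the complex, Gins2 gave -0.07 ± 0.21 and 0.26 ± 0.21, and Gins3 gave 0.06 ± 0.20 and 0.21 ± 0.20, none passing. Gins4 gave 0.96 ± 0.36 in glomus cells (adjusted p = 0.0779) and rose by 1.09 ± 0.36 in neuroblasts (adjusted p = 0.032). Within an array the log2 ratio of Gins1 to Gins3 was 1.83 higher in hypoxic glomus cells and 2.23 higher in hypoxic neuroblasts. Cdc45, which binds the helicase together with GINS, rose by 1.27 ± 0.22 (adjusted p = 0.000541) and 1.14 ± 0.22 (adjusted p = 0.000755). Mcm10, an activator of the loaded helicase, gave 0.11 ± 0.21 in glomus cells (adjusted p = 0.749) and rose by 0.82 ± 0.21 in neuroblasts (adjusted p = 0.00833).

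Among the 8 polymerase and primase subunits, 1 rose and 1 fell in glomus cells (12.5% each, against 9.37% and 9.5% of all probes). In neuroblasts 3 rose (37.5%, against 18.4% of all probes) and 1 fell (12.5%, against 13.7%). The glomus shares and the share of falls in neuroblasts were thus near those of all probes. Pole2, the accessory subunit of the leading-strand polymerase epsilon, read 3.20, 3.61, 2.91 and 3.01 in normoxic glomus cells and 5.46, 4.75, 3.99 and 4.96 in hypoxic ones. In neuroblasts Pole2 read 3.10, 3.35, 2.88 and 3.32 in normoxia and 4.10, 4.53, 5.30 and 5.24 in hypoxia. Every hypoxic array was above every normoxic one, with rises of 1.61 ± 0.30 (adjusted p = 0.00107) and 1.63 ± 0.30 (adjusted p = 0.000555). The catalytic subunit Pole gave 0.20 ± 0.21 in glomus cells (adjusted p = 0.531) and rose by 0.62 ± 0.21 in neuroblasts (adjusted p = 0.034). Pold1, the catalytic subunit of the lagging-strand polymerase delta, went the other way. Pold1 read 5.38, 5.59, 6.10 and 5.86 in normoxic glomus cells and 5.13, 4.56, 5.15 and 4.95 in hypoxic ones. In neuroblasts it read 5.89, 5.55, 5.79 and 5.75 in normoxia and 5.44, 5.25, 4.62 and 5.10 in hypoxia. The falls, of -0.79 ± 0.20 (adjusted p = 0.0117) and -0.64 ± 0.20 (adjusted p = 0.0248), had no overlap between groups in either population. Its partner Pold2 gave -0.47 ± 0.27 and -0.35 ± 0.27 (adjusted p = 0.239 and 0.309). Of the primer-making subunits, Pola2 rose in neuroblasts by 0.59 ± 0.20 (adjusted p = 0.0334) and gave 0.57 ± 0.20 in glomus cells (adjusted p = 0.0571), the catalytic Pola1 gave -0.65 ± 0.27 and -0.13 ± 0.27, and the primase subunits Prim1 and Prim2 gave 0.25 to 0.77 without passing. The second Prim1 probe passed in neither population. The log2 ratio of Pole2 to Pold1 within an array was 2.39 higher in hypoxic glomus cells and 2.27 higher in hypoxic neuroblasts.

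**Figure D2:**
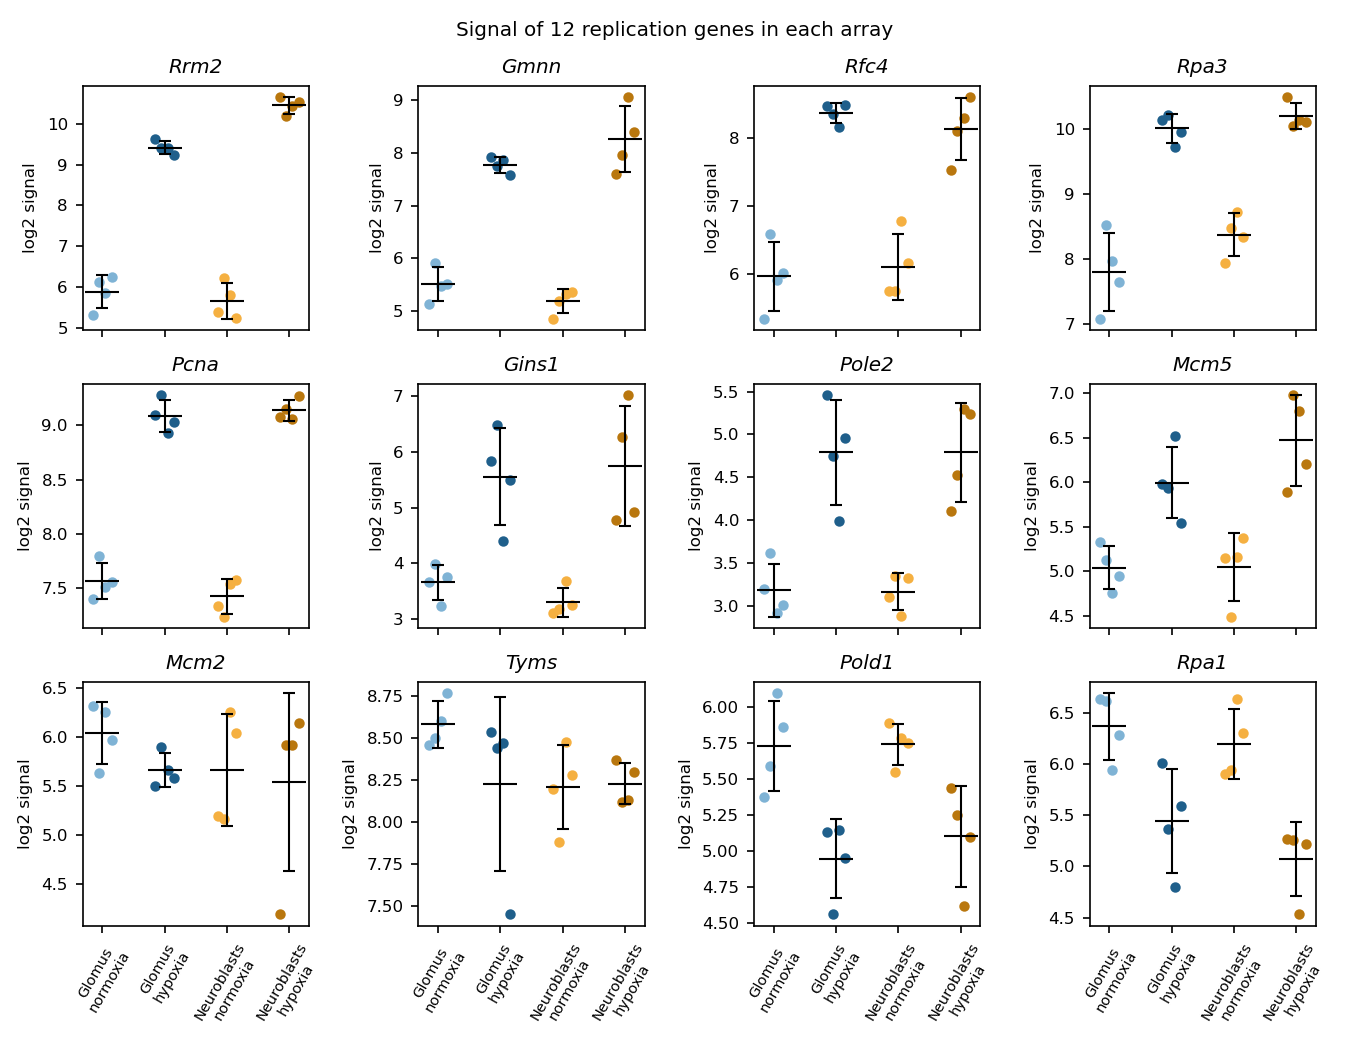
Log2 signal of 12 replication genes on each array (points), with the group mean (long bar) and SD (error bars, n = 4), for normoxic and hypoxic glomus cells and neuroblasts. Pcna means are 7.57 and 7.43 in normoxia and 9.09 and 9.14 in hypoxia, whereas Mcm2 and Tyms overlap and Pold1 and Rpa1 are lower in hypoxia.

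The sliding clamp rose in both populations, as did Rfc3 and Rfc4 among the loader subunits. Pcna, the ring that holds polymerases on DNA, read 7.40, 7.80, 7.51 and 7.56 in normoxic glomus cells and 9.10, 9.28, 8.93 and 9.03 in hypoxic ones. In neuroblasts Pcna read 7.34, 7.24, 7.54 and 7.58 in normoxia and 9.08, 9.15, 9.06 and 9.27 in hypoxia. Pcna had the smallest error of the members that rose, with rises of 1.52 ± 0.15 (2.86-fold, adjusted p = 8.07e-06) and 1.72 ± 0.15 (3.28-fold, adjusted p = 7.45e-07). Rfc4, a subunit of the clamp loader, read 5.35, 6.59, 5.91 and 6.02 in normoxic glomus cells and 8.47, 8.35, 8.16 and 8.48 in hypoxic ones. In neuroblasts Rfc4 read 5.75, 5.75, 6.78 and 6.16 in normoxia and 7.53, 8.10, 8.29 and 8.60 in hypoxia. It rose by 2.40 ± 0.28 (5.27-fold, adjusted p = 2.71e-05) and 2.02 ± 0.28 (4.06-fold, adjusted p = 4.24e-05), with no overlap. Rfc3 rose by 0.88 ± 0.26 (adjusted p = 0.0246) and 1.06 ± 0.26 (adjusted p = 0.00524). Rfc2 and Rfc5 did not pass, with Rfc2 at -0.56 ± 0.36 and -0.18 ± 0.36 and Rfc5 at -0.24 ± 0.35 and 0.56 ± 0.35. Neither did the large subunit Rfc1, which is not among the 43 genes, at -0.24 ± 0.19 and -0.39 ± 0.19 (adjusted p = 0.398 and 0.116). The log2 ratio of Rfc4 to Rfc2 within an array was 2.96 higher in hypoxic glomus cells and 2.20 higher in hypoxic neuroblasts. Among hypoxic neuroblast arrays it ran from 0.93 to 2.32, highest on replicate 1, where Rfc2 read 5.21.

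Replication protein A, the trimer that coats single-stranded DNA, showed opposite changes among its subunits. Rpa3, the smallest subunit, read 7.08, 8.52, 7.97 and 7.65 in normoxic glomus cells and 10.14, 10.23, 9.73 and 9.96 in hypoxic ones. In neuroblasts Rpa3 read 7.94, 8.48, 8.73 and 8.34 in normoxia and 10.50, 10.06, 10.15 and 10.11 in hypoxia. The rises, of 2.21 ± 0.25 (4.63-fold, adjusted p = 2.36e-05) and 1.83 ± 0.25 (3.56-fold, adjusted p = 4.18e-05), separated all hypoxic from all normoxic arrays. Rpa1, the large DNA-binding subunit, read 6.63, 6.61, 5.94 and 6.28 in normoxic glomus cells and 6.01, 5.36, 4.80 and 5.59 in hypoxic ones. In neuroblasts Rpa1 read 5.90, 5.94, 6.63 and 6.30 in normoxia and 5.27, 5.26, 4.53 and 5.22 in hypoxia. Groups overlapped by 1 array in glomus cells and not at all in neuroblasts, and the falls were -0.93 ± 0.26 (adjusted p = 0.0182) and -1.12 ± 0.26 (adjusted p = 0.00361). Rpa2, the middle subunit, gave -0.15 ± 0.27 and -0.24 ± 0.27 (adjusted p = 0.737 and 0.505). The log2 ratio of Rpa3 to Rpa1 within an array ran from 0.45 to 2.03 in normoxic and from 4.13 to 4.93 in hypoxic glomus cells, and from 2.04 to 2.54 and from 4.80 to 5.62 in neuroblasts; only its change can be read, since probes differ in brightness.

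Behind the fork, Fen1, the nuclease that trims Okazaki fragments, rose by 0.50 ± 0.16 in glomus cells (adjusted p = 0.0341, a call lost in 9 of 25 alternatives) and 1.06 ± 0.16 in neuroblasts (adjusted p = 8.98e-05). Lig1, the ligase that seals those fragments, gave 0.09 ± 0.23 and -0.08 ± 0.23 (adjusted p = 0.826 and 0.804). Of the chromatin genes, Chaf1b, a subunit of the histone chaperone CAF-1, rose in neuroblasts by 1.02 ± 0.29 (adjusted p = 0.0131) and gave 0.29 ± 0.29 in glomus cells (adjusted p = 0.509). Its partner Chaf1a gave 0.03 ± 0.26 and 0.40 ± 0.26 (adjusted p = 0.954 and 0.232), and Uhrf1, which helps copy DNA methylation, gave 0.02 ± 0.17 and 0.36 ± 0.17 (adjusted p = 0.949 and 0.113). In all, 8 members, Orc1, Cdt1, Mcm3, Mcm10, Gins4, Pola2, Pole and Chaf1b, passed as higher in neuroblasts without passing in glomus cells. All 8 lost the neuroblast call with arrays centred on their medians, with limma adjusted p from 0.0614 (Mcm10) to 0.511 (Orc1).

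Whether the hypoxic difference itself differed between populations was tested by the interaction term, and 0 of 41 members passed (0.0263% of all probes passed as larger in neuroblasts and 0.0526% as smaller), although 6 had an unadjusted p under 0.05. The hypoxic difference was numerically larger in neuroblasts for 32 members, and the member median of the interaction was 0.20 beside 0.05 over all probes. The 6 were Rrm2, Cdc6, Cdt1, Gmnn, Mcm10 and Fen1, with interactions from 0.49 to 1.26. For Rrm2 the interaction was 1.26 ± 0.32 (unadjusted p = 0.00105, limma adjusted p = 0.246).

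**Figure D3:**
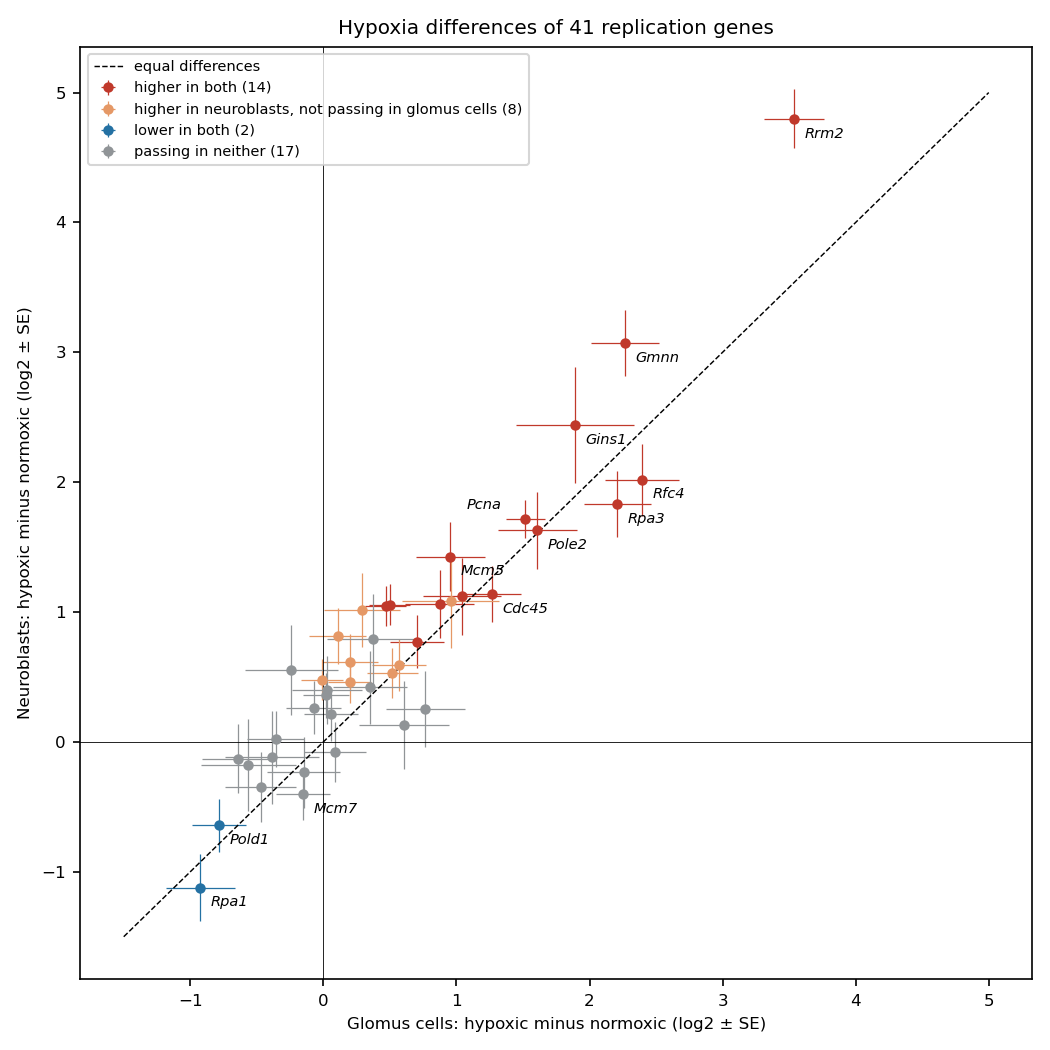
Hypoxic minus normoxic log2 difference of each of the 41 replication genes in glomus cells (horizontal) and neuroblasts (vertical), with SE bars from limma and a dashed line of equal differences. The 14 genes higher in both reach 3.54 and 4.80 at Rrm2, the 8 higher in neuroblasts without passing in glomus cells reach no further than Gins4 at 0.96 and 1.09, and 32 genes lie above the line.

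Between populations at the same oxygen level no replication gene passed the test. In normoxia 0 of 41 passed in limma (0.996% of all probes were higher and 0.828% lower in neuroblasts), 1 gene, Rpa3, had an unadjusted p under 0.05 (0.57 ± 0.25 higher in neuroblasts, adjusted p = 0.467), and the member median was -0.14 beside -0.01 over all probes. In hypoxia 0 of 41 passed (0.138% of all probes were higher and 0.145% lower), and 4 had an unadjusted p under 0.05, namely Rrm2, Cdc6, Mcm10 and Fen1, all higher in neuroblasts. For Rrm2, Cdc6 and Mcm10 every hypoxic neuroblast array lay above every hypoxic glomus array, and in normoxia Rfc2 and Chaf1b lay wholly below. The share of all probes that separated in these population comparisons is not given here, so no population difference is read from this separation. Rrm2 came nearest, at 10.19 or above in hypoxic neuroblasts and 9.63 or below in hypoxic glomus cells, a difference of 1.04 ± 0.23 (adjusted p = 0.0671). Quantile normalization gave it an adjusted p of 0.0359, within a range of 0.0353 to 0.164 over all alternatives. The level of Rrm2 therefore ran from normoxic neuroblasts (mean 5.66 ± 0.44 SD, n = 4) and normoxic glomus cells (5.88 ± 0.41), which overlapped, to hypoxic glomus cells (9.42 ± 0.16) and hypoxic neuroblasts (10.46 ± 0.20).

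Averaged over the 41 members, the log2 signal ran from 5.39 to 5.64 on the normoxic glomus arrays, 5.30 to 5.59 on the normoxic neuroblast arrays, 5.96 to 6.17 on the hypoxic glomus arrays and 5.93 to 6.38 on the hypoxic neuroblast arrays. The lowest hypoxic neuroblast value was that of replicate 1, the array that stood apart. The 2 normoxic groups overlapped, as did the 2 hypoxic groups, and neither pair reached the other. These means were not centred on array medians. The array medians alone also separated the conditions, at 4.40 to 4.64 in normoxia and 4.71 to 4.94 in hypoxia, so the separation is not particular to the members.

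Other genes of the replication cycle, listed by role with earlier results of these data known, were read beside the members. Of 29 further fork and origin factors, 6 rose (20.7%) and 2 fell (6.9%) in each population, against 9.37% and 9.5% of all probes in glomus cells and 18.4% and 13.7% in neuroblasts. The share that rose in neuroblasts was thus near that of all probes. They included Dscc1, a subunit of an alternative clamp loader, which rose by 1.64 ± 0.29 in glomus cells (adjusted p = 0.000664) and 3.09 ± 0.29 in neuroblasts (adjusted p = 1.15e-06). Its partner Chtf8 fell by 1.52 ± 0.26 (adjusted p = 0.000565) and by 0.77 ± 0.26 (adjusted p = 0.0322). Pclaf, a protein that binds the Pcna clamp, rose by 1.28 ± 0.30 and 1.69 ± 0.30, and Rnaseh2c, a subunit of the RNase that removes ribonucleotides from DNA, by 0.67 ± 0.22 and 1.60 ± 0.22. Chtf18, the third subunit particular to the complex of Dscc1 and Chtf8, gave -0.16 ± 0.16 and 0.14 ± 0.16 (adjusted p = 0.518 and 0.494).

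Among 12 further nucleotide metabolism genes, 3 rose and 1 fell (8.33%) in each population, against the same shares of all probes. Dtymk, the kinase that makes dTDP, rose by 1.05 ± 0.21 and 0.77 ± 0.21, while Cad, the first enzyme of pyrimidine synthesis, fell by 1.21 ± 0.27 (adjusted p = 0.00485) and by 1.63 ± 0.27 (adjusted p = 0.000276). Of 14 S phase regulators, 3 rose and 3 fell in glomus cells (21.4% each), and 5 rose (35.7%) and 2 fell (14.3%) in neuroblasts. Ccna2, the S phase cyclin, rose by 1.70 ± 0.22 (adjusted p = 6.56e-05) and 2.67 ± 0.22 (adjusted p = 5.75e-07), and Fbxo5, an inhibitor of the anaphase-promoting complex, by 1.18 ± 0.25 and 2.25 ± 0.25. In contrast Tfdp1, the dimer partner of E2F factors, fell by 0.84 ± 0.24 (adjusted p = 0.0213) and by 1.01 ± 0.24 (adjusted p = 0.0045), and the phosphatase Cdc25a fell by 1.34 ± 0.31 and by 1.03 ± 0.31.

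Histone supply genes rose for 2 of 10 members in glomus cells, with 0 falling, and for 4 in neuroblasts, with 2 falling, so 20.0% and 40.0% rose against 9.37% and 18.4% of all probes. Nasp, a histone chaperone, rose by 1.05 ± 0.23 and 1.42 ± 0.23, and Slbp, which binds the stem loop of histone messages, by 0.88 ± 0.23 and 1.19 ± 0.23. Of 11 replication stress and repair genes, 1 rose in glomus cells (9.09%, near the 9.37% of all probes) and 5 in neuroblasts (45.5%). Msh6, a mismatch repair protein, rose in both, by 1.10 ± 0.19 (adjusted p = 0.000756) and 1.31 ± 0.19 (adjusted p = 9.08e-05).

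A list of mitosis and proliferation markers rose for 6 of 11 genes (54.5%) in glomus cells and 11 of 11 in neuroblasts, against 9.37% and 18.4% of all probes. List medians were 0.79 and 2.32, beside 0.17 and 0.25 over all probes. Mki67, the common proliferation marker, read 4.26 to 5.20 in normoxic and 6.95 to 7.48 in hypoxic glomus cells, and 4.07 to 4.95 and 7.29 to 8.52 in neuroblasts. It rose by 2.58 ± 0.27 (adjusted p = 1.62e-05) and 3.62 ± 0.27 (adjusted p = 2.89e-07). Top2a, the topoisomerase that untangles sister chromatids, rose by 1.47 ± 0.22 (adjusted p = 0.000203) and 2.61 ± 0.22 (adjusted p = 6.39e-07). Of these 11 genes 1 passed the interaction test: Nusap1, a spindle protein, rose by 1.81 ± 0.22 in glomus cells and 3.64 ± 0.22 in neuroblasts, with an interaction of 1.83 ± 0.30 (adjusted p = 0.0298).

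**Figure D4:**
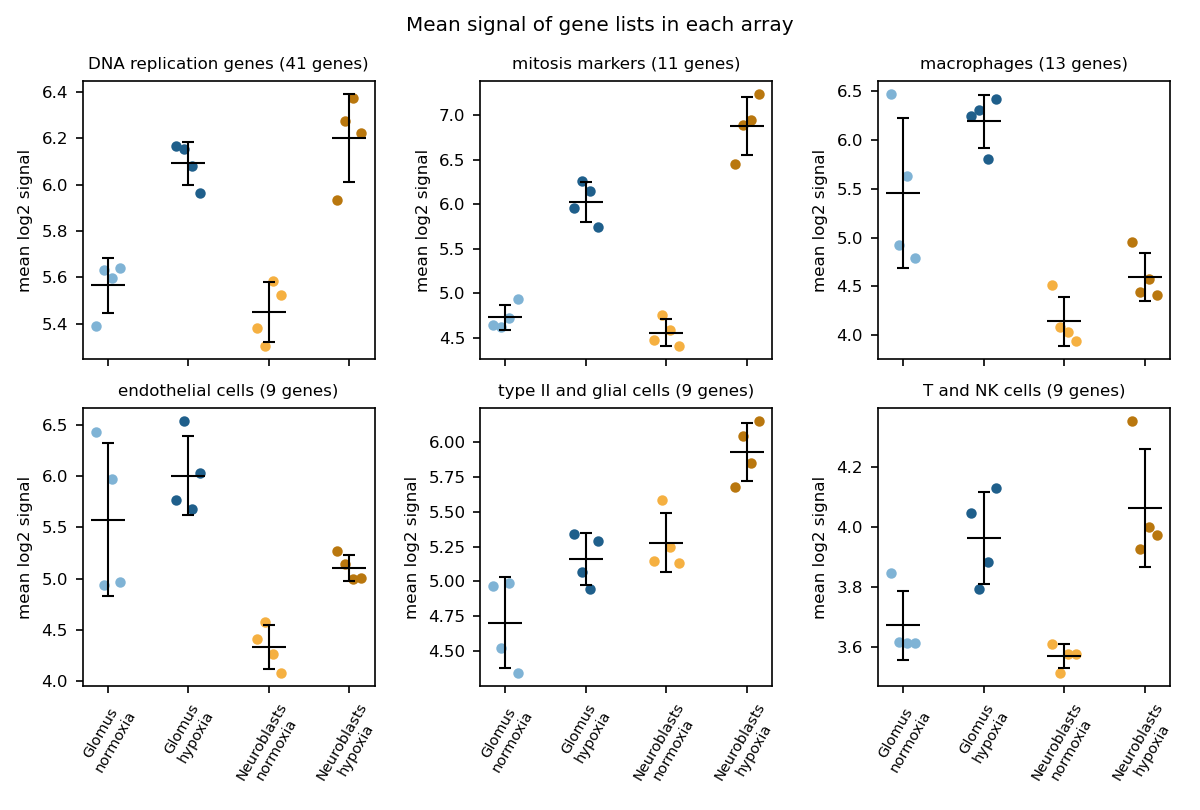
Mean log2 signal over each gene list on each array (points), with group mean and SD (n = 4), for the replication genes, mitosis markers and 4 lists of markers of other cell types. The replication and mitosis lists, not centred on array medians, separate hypoxia from normoxia in both populations, as the array medians themselves do. The macrophage list is higher in glomus cells, where normoxic arrays run from 4.79 to 6.47 and hypoxic ones from 5.80 to 6.42.

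Markers of cells that a sort could carry along were read against the same shares of all probes (rises of 9.37% in glomus cells and 18.4% in neuroblasts, falls of 9.5% and 13.7%). Macrophage markers rose for 4 of 13 genes in glomus cells (30.8%) and 0 of 13 in neuroblasts, with list means of 4.79 to 6.47 in normoxic and 5.80 to 6.42 in hypoxic glomus cells, and of 3.94 to 4.51 and 4.41 to 4.95 in neuroblasts. Endothelial markers rose for 2 of 9 genes (22.2%) in each population, near the share of all probes in neuroblasts, including Cldn5 by 1.77 ± 0.34 and 2.60 ± 0.34. On the normoxic glomus arrays Cldn5 read 8.04, 8.33, 8.53 and 8.66, lowest on replicate 1. Cdh5 (6.93, 5.10, 6.25 and 4.35) and Tek (7.15, 4.27, 6.40 and 4.54) were highest there, so Cldn5 did not vary with these markers. The 9 endothelial markers went both ways in glomus cells, with 6 differences above 0 and 3 below (lowest -0.605). All 9 were above 0 in neuroblasts. Their list means were 4.94 to 6.43 and 5.68 to 6.54 in normoxic and hypoxic glomus cells, and 4.33 ± 0.21 and 5.10 ± 0.13 (SD, n = 4) in neuroblasts, without overlap in the latter. Markers of type II and glial cells rose for 1 of 9 genes in glomus cells (11.1%) and 3 of 9 in neuroblasts (33.3%), with S100b rising in both by 1.93 ± 0.41 and 2.33 ± 0.41, and list means were 4.34 to 4.99 and 4.95 to 5.34, and 5.13 to 5.58 and 5.68 to 6.15. T and NK cell markers rose for 1 and 2 of 9 genes (11.1% and 22.2%), near the shares of all probes, with list means of 3.61 to 3.85 and 3.79 to 4.13, and of 3.51 to 3.61 and 3.92 to 4.35. Fibroblast markers fell for 1 of 8 genes (12.5%) in each population, also near those shares, pericyte and smooth muscle markers rose for 1 and fell for 1 of 6, and the 1 erythroid gene measured did not pass. A log2 signal has no true zero, so no marker can be called absent. The part of these cells in the rises of the replication genes was not tested.

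Glomus cell markers had list means of 9.97 to 10.14 and 9.81 to 10.09 in normoxic and hypoxic glomus cells, and 9.09 to 9.39 and 8.78 to 9.70 in neuroblasts, where hypoxic replicate 1 was lowest and the other three lay above every normoxic array. The members went both ways. In glomus cells 2 of 12 rose (16.7%, against 9.37% of all probes) and 3 of 12 fell (against 9.5% of all probes). Their differences ran from -1.58 to 2.18, 9 of them below 0. In neuroblasts 4 of 12 rose (33.3%, against 18.4% of all probes) and 3 of 12 fell (against 13.7% of all probes). Rises and falls were thus both more frequent than over all probes. Of the 4 HNK-1 epitope genes, 2 fell in glomus cells and 3 in neuroblasts, against 9.5% and 13.7% of all probes. B3gat1 fell by 0.86 ± 0.29 in neuroblasts (adjusted p = 0.0346).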

How the data were processed

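The deposited table holds one value per probe and array on a log2 scale, made by the authors with Transcriptome Analysis Console per the submitters' processing notes. The scale was read from the values, which run from 0.87 to 13.33. Its version, background correction and normalization were not given in the sources used here. Probe genes came from the platform annotation supplied with the data, and only probes assigned to 1 gene were named. All 30429 probes were fitted in limma 3.58.1 (R 4.3.3) with 1 mean per group over 16 arrays, empirical Bayes variances and 12 residual degrees of freedom. Contrasts were hypoxia in each population, neuroblasts against glomus cells at each oxygen level, and their interaction, each Benjamini-Hochberg adjusted over all probes, with 0.05 as the threshold. Errors beside differences are standard errors of the fit, in the order glomus cells then neuroblasts. The fit was tested on simulated data.

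The members and lists were chosen with earlier results of these data known. Every member could be named; values on every array were given for the 6 largest passing differences in either hypoxia comparison, for Pcna and Mcm2, and for up to 3 members that fell. Other lists contributed up to 4 genes, and cell type lists up to 2, with the smallest p. The number of arrays limits the precision. Promoter letters were searched on both strands, with overlapping matches counted, and where RefSeq lists several starts (Dut, Uhrf1) the first was used. Alternatives were centring, quantile normalization, dim-probe filters, array weights, variance trend, fits of only the arrays compared, a replicate block, averaging a gene's probes, a threshold of 0.01 and leaving out each array.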

Additional observations from a re-analysis of the deposited data

Results flagged for a closer look

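In groups of 4 arrays, 7 of 164 tests of a member in a group found 1 array far from the other three by Dixon's criterion, and chance alone flags about 1 in 20 such groups. Hypoxic neuroblast replicate 1 accounted for 3 of them: Mcm2 read 4.19 beside 5.92 to 6.14, Gins4 read 5.16 beside 6.50 to 6.68, and Mcm10 read 5.20 beside 4.47 to 4.56. In hypoxic neuroblast replicate 3, Rpa1 read 4.53 beside 5.22 to 5.27. In hypoxic glomus replicate 4, Tyms read 7.45 beside 8.44 to 8.54, and Mcm6 read 6.71 beside 5.98 to 6.06. In normoxic glomus replicate 3, Mcm3 read 4.56 beside 5.09 to 5.16.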

How the results depend on the processing

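In glomus cells the 14 members that rose became 8 with arrays centred on their medians and 8 at an adjusted p under 0.01, and 9 to 17 when 1 array was left out, with 9 without normoxic glomus replicate 4. Dut, Orc6, Cdc6, Mcm5, Rfc3 and Fen1 lost the glomus call with centring. The 2 that fell became 0 at an adjusted p under 0.01 and 1 to 2 when 1 array was left out. Pold1 lost its call without normoxic glomus replicate 3, and Rpa1 without normoxic glomus replicate 1 or 2 or hypoxic glomus replicate 3; without normoxic replicate 1 or hypoxic replicate 3 Pola1 passed in its place. In neuroblasts the 22 that rose became 12 with centring, 14 of the 30 members tested without the dimmer 50% of probes, and 16 to 22 when 1 array was left out. The 2 that fell became 1 with only the arrays compared, 1 at an adjusted p under 0.01, and 1 to 2 when 1 array was left out, Pold1 losing its call without normoxic neuroblast replicate 1, 3 or 4 or hypoxic neuroblast replicate 3. Between hypoxic populations the count of higher members, 0, became 1 (Rrm2) under quantile normalization, without the dimmer 50% of probes, and without normoxic glomus replicate 1 or normoxic neuroblast replicate 2 (0 to 1 over single arrays left out). The cause was not tested. Called under every alternative that tested them were 8 of 16 called members in glomus cells and 13 of 24 in neuroblasts, and no called member reversed. Gins1 and Pole2, among the 8 and the 13, and Cdc6 and Fen1, among the 13, were not tested without the dimmer 50% of probes. Of the uncalled members, 10 of 25 and 9 of 17 changed sign somewhere. The labels do not say whether same-numbered arrays share an origin. Correlations of their deviations from group means ran from -0.105 to 0.205. Differently numbered arrays were not compared, so these values cannot decide whether arrays were paired. With a replicate block 13 members rose and 3 fell in glomus cells, and 23 rose and 2 fell in neuroblasts. Without detection calls, signal over background could not be set beside any value.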
